A study of Rattus norvegicus with 4 samples.

Results

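The genes described here encode AP-1 transcription factors and their relatives (Fos, Fosl1, Fosl2, Jun, Junb, Jund and Maff), the Egr zinc-finger factors Egr1 and Egr2, and Ier3, an early response gene. They are 10 of the 13810 genes named on the arrays of the series, and were taken by symbol with all of their 17 probe sets. The series measured the lateral wall of the rat cochlea, the tissue of the spiral ligament, after exposure to 3-nitropropionic acid (3-NP), which blocks succinate dehydrogenase in mitochondria. The 4 groups were 3-NP at 300 mM taken 1 day after infusion, saline taken 1 day after infusion, 3-NP at 300 mM taken 3 days after infusion and saline taken 3 days after infusion. Each group is 1 array, so differences could not be checked against replicates and none was tested. All animals were female Sprague-Dawley rats of 8 to 10 weeks and 180 to 210 g. In all of them, saline controls included, the left ear was infused through the round window niche under pentobarbital and lidocaine, gelatin was placed on the niche and the right cochlea was destroyed. The labels name the upper basal turn in some fields and the second turn without the stria vascularis in another, and they do not say how many animals an array stands for.

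AP-1 is a dimer of basic leucine zipper proteins. Jun proteins pair with one another or with Fos proteins, and the dimers bind a short palindrome in the promoters and enhancers of genes for matrix proteases, cytokines and growth control. Fos, Jun and Egr genes are classic immediate early genes: growth factors, calcium, cytokines and cell stress switch them on without new protein synthesis, through serum response factor, ternary complex factors and CREB, and their mRNAs are short-lived. Maff is a small Maf protein without an activation domain of its own that pairs with Nrf2 and related factors, Egr2 is also known as the factor that drives myelination in Schwann cells, and Ier3 encodes a short protein linked to cell survival and NF-kB signalling.

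The deposited values are MAS5 signals on a linear scale. The day 1 pair was hybridised to a first array design and the day 3 pair to another, so no ratio of day 3 to day 1 was taken. A log2 ratio is 3-NP over saline, and a relative log2 ratio is that ratio minus the median over all measured genes of the day, which was 0.44 at day 1 and 0.10 at day 3. Signals under the 30th percentile of an array were set to that floor, which was 22.0 in 3-NP and 17.1 in saline at day 1, and 9.85 in 3-NP and 9.22 in saline at day 3. A probe set was called measured when it reached the median signal of the 3-NP array, the saline array or both, and a gene was represented by its brightest measured probe set. A relative log2 ratio of 1 or more in size, which is 2-fold, counted as higher or lower. Where the saline signal lay at the floor the ratio is a lower bound, written "at least". In bulk tissue, fewer cells of a type and less RNA per cell cannot be told apart.

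At day 1 the AP-1 and Egr genes that could be measured all had higher signals in 3-NP than in saline, led by Fos at 11.3-fold relative to the median gene. Ier3, Junb, Fosl1, Egr1 and Egr2 were between 5.23-fold and 2.89-fold higher, and Jun was 1.73-fold higher by its brightest probe set. At day 3, on the other array design, Maff was at least 25.6-fold higher, Fosl2 at least 2.38-fold higher and Jund 1.90-fold higher. Maff was not on the day 1 design, while Fosl2 and Jund were on it but too dim to be measured. Of the 9 members on the day 1 design 7 were measured, and 6 of them were at least 2-fold higher and 0 lower. Over all 6533 measured genes of that day 7.76% were at least 2-fold higher and 6.47% at least 2-fold lower. All 3 members on the day 3 design were measured, with 2 at least 2-fold higher and 0 lower, against 9.21% higher and 8.18% lower of 3972 genes. As deposited, without centring, 7 members were higher at day 1, beside 1169 higher and 171 lower genes in place of 507 and 423. At day 3 it was 3 members, beside 433 higher and 255 lower genes in place of 366 and 325. These counts cover only members bright enough to be measured. The members, and the gene lists below, were chosen with earlier results of these data known, so their counts are not independent of these values. Fos and Fosl1 at day 1, and Fosl2 and Maff at day 3, passed through the 3-NP array alone. Of all genes that passed in this way, 47.8% of 502 at day 1 and 50.9% of 373 at day 3 were at least 2-fold higher, so a high ratio is common among them by construction.

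**Figure D1:**
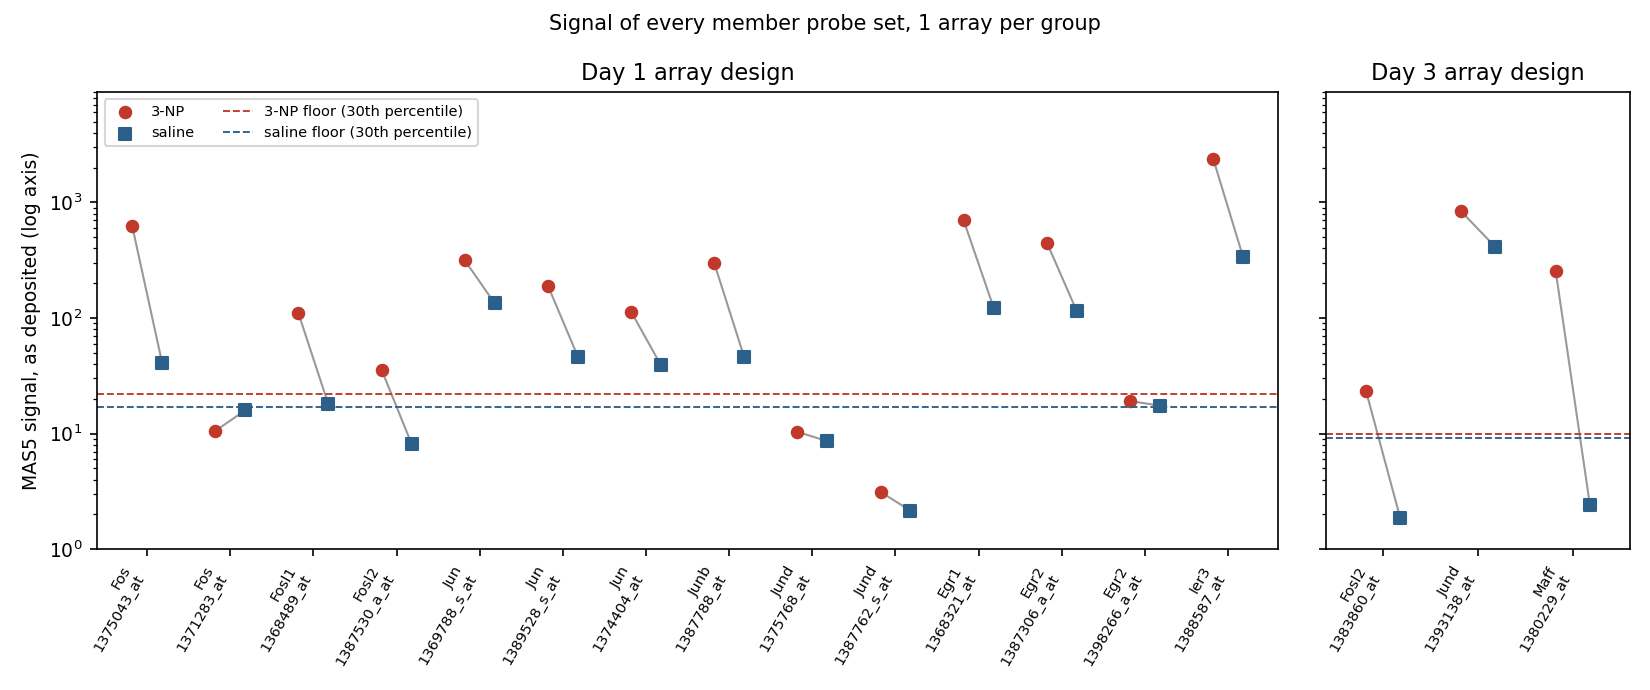
Signal of each of the 17 member probe sets, as deposited, on a log axis. Circles are the 3-NP array and squares the saline array of the same day, joined by a line, and dashed lines are the floor of each array. The brightest Fos probe set stands at 629 in 3-NP and 41.1 in saline, while both Jund probe sets of the day 1 design lie under both floors.

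The spread between probe sets gives the only error available inside these data. Among genes with more than 1 measured probe set, relative log2 ratios of single probe sets had an SD of 0.35 over 744 genes at day 1 and of 0.47 over 805 genes at day 3, and the difference between the brighter and the dimmer stayed under 1.03 at day 1 and 1.36 at day 3 for 95% of genes. Of 41 genes that were at least 2-fold higher by the brighter probe set at day 1, 32 were so by the other as well, and at day 3 it was 17 of 41. This spread covers probe design and hybridisation, and leaves out animals and dissection.

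Promoter windows of 4 members are shown as examples of start regions with elements through which immediate early genes are known to be switched on. Jund, 1 of the 4, was under 2-fold. Fosl1, Fosl2 and Junb passed 2-fold and their windows also hold matches, but these are not printed. Whether any element had a part in the ratios was not tested. All windows run from 250 bases before to 50 bases after the RefSeq transcription start in the GRCr8 assembly. The set of promoter windows used here covers 7 of the 10 members (Fosl1, Fosl2, Junb, Jund, Maff, Egr1 and Egr2). It has no entry for Fos, Jun and Ier3. Capitals mark matches, on either strand, to the cAMP response element (CRE, TGACGTCA), its core (TGACG, which lies inside every CRE), the Egr site (GCGNGGGCG), the CArG box bound by serum response factor, the AP-1 site (TGANTCA) and TATAAA. All sequences read 5′ to 3′ on the strand of the gene.
Egr1, chr18:26736828-26737127, plus strand: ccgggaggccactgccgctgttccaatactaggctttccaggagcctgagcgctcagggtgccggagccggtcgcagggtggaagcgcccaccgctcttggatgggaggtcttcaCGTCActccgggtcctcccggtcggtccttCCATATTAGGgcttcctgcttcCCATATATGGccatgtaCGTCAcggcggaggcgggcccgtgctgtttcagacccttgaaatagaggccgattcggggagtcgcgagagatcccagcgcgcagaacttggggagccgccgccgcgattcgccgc
Egr2, chr20:21054392-21054691, minus strand: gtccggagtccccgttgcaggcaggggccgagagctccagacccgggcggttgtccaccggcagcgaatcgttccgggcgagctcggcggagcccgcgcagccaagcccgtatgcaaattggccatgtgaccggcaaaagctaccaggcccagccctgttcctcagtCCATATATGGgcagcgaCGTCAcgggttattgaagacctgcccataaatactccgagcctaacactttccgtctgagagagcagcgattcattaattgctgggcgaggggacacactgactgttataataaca
Maff, chr7:112792537-112792836, plus strand: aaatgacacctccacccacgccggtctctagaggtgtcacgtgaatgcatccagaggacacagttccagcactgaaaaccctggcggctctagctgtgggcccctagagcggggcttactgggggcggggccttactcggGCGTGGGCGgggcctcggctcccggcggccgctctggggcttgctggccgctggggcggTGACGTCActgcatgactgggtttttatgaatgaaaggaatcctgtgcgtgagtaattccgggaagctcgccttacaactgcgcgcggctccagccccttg
Jund, chr16:18769722-18770021, minus strand: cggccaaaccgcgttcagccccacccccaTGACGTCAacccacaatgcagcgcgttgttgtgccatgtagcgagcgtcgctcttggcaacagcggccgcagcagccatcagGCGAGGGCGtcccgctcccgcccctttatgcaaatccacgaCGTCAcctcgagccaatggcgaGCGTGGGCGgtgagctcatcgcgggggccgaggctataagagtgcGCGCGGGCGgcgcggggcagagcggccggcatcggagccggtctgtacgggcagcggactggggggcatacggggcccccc

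The Egr1 window holds CArG boxes at bases -105 to -96 and -83 to -74 from the start, and the Egr2 window holds one at -83 to -74, the same position. A CArG box is present in 1.64% of the 33469 rat promoter windows and in 2 of these 7. Both Egr windows also carry a CRE core at -66 to -62. A whole CRE lies at -51 to -44 in Maff and at -221 to -214 in Jund, the members on the day 3 design besides Fosl2, and 1.83% of all windows hold it. The CRE core is found in 6 of the 7 windows and in 21.2% of all windows. Egr sites lie in the windows of Jund (3 matches), Fosl2 (2) and Maff (1), against 4.98% of all windows with at least 1. TATAAA was found in the Junb window alone, against 14.2% of all. No AP-1 site was matched in any of the 7, where 7.33% of all windows have one, which says only that these letters are not in these windows.

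**Figure D2:**
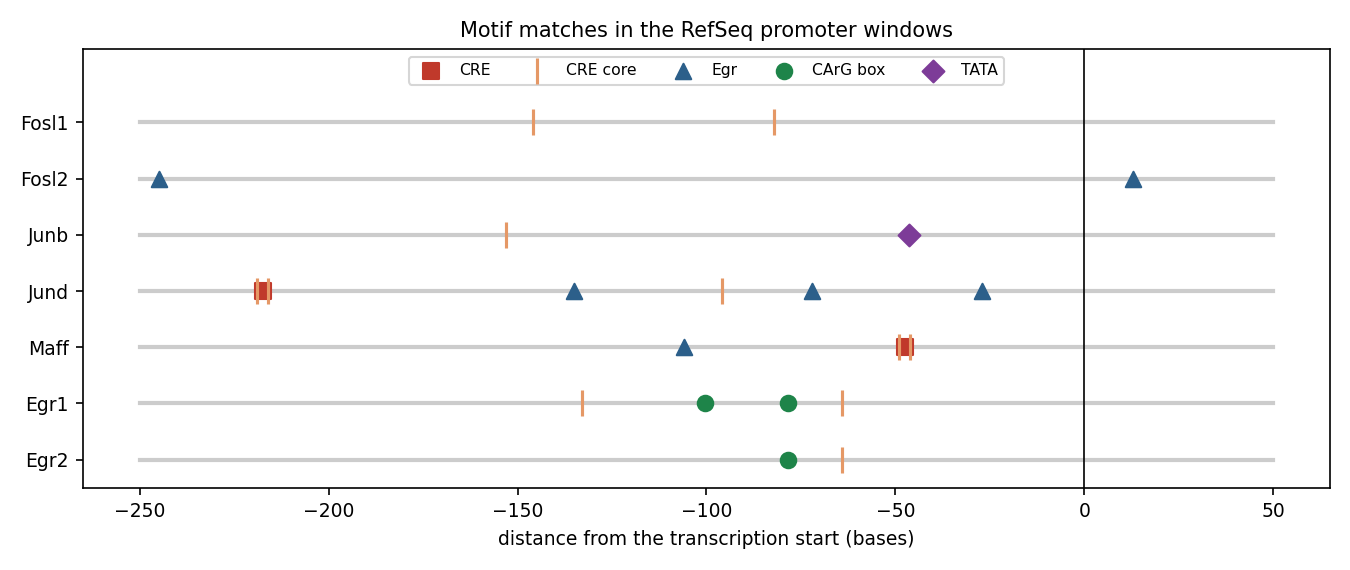
Positions of motif matches in the 7 promoter windows, with distance from the transcription start on the horizontal axis in bases and 1 row per gene. Squares are whole CREs, bars CRE cores, triangles Egr sites, circles CArG boxes and the diamond TATAAA. The CArG box at -83 to -74 and the CRE core at -66 to -62 stand at the same distance in Egr1 and Egr2.

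Fos, the partner that gives AP-1 dimers with Jun their high DNA affinity, had a signal of 629 in 3-NP and 41.1 in saline at day 1 by probe set 1375043_at. The 3-NP signal was 15.3-fold the saline signal as deposited and 11.3-fold relative to the median gene, a relative log2 ratio of 3.50. That placed Fos 21st from the highest of 6533 measured genes, a place that describes a gene measured through the 3-NP array alone. The other Fos probe set, 1371283_at, had 10.6 in 3-NP and 15.9 in saline, both under the floor, and so gave no ratio. The Fos result thus rests on 1 of 2 probe sets.

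Fosl1 encodes Fra-1, a Fos relative that is itself a transcriptional target of AP-1. Its signal was 110 in 3-NP and 17.9 in saline, a relative log2 ratio of 2.18 or 4.53-fold, with the saline value just above the floor of 17.1. With the floor at the 40th percentile the ratio was 1.52. Fosl2, which encodes Fra-2, was on both designs. At day 1 it had 35.7 in 3-NP and 8.19 in saline, which was too dim to count as measured and gave a lower bound of 0.62. At day 3 another probe set had 23.5 in 3-NP and 1.88 in saline, a lower bound of 1.25 that moved to 2.10 with the floor at the 20th percentile and to 0.70 with the floor at the 40th. On both days the saline array lay under its floor and the 3-NP array above its own.

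Jun, which can form AP-1 alone or with Fos, had 3 probe sets at day 1, all measured. The brightest, 1369788_s_at, had 315 in 3-NP and 134 in saline, a relative log2 ratio of 0.79. The next, 1389528_s_at, had 190 in 3-NP and 46.4 in saline, a ratio of 1.60. The last, 1374404_at, had 114 in 3-NP and 39.0 in saline, a ratio of 1.10. All 3 were higher in 3-NP, and the choice of probe set decided whether Jun passed 2-fold. Their mean was 1.16, and their range of 0.79 to 1.60 lay inside the difference of 1.03 seen for 95% of genes with several probe sets. The pair of dimmer probe sets came from the same source transcript in the platform annotation and differed by less than the same limit.

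Junb, a Jun relative that restrains Jun activity and drives its own target set, had 299 in 3-NP and 46.1 in saline, 6.49-fold as deposited and 4.79-fold relative to the median gene. Its relative log2 ratio of 2.26 was 86th from the highest. Jund, the Jun family member that many resting tissues express steadily, was under the floors on the day 1 design and above them on the day 3 design. Both day 1 probe sets were under the floors, at 10.4 in 3-NP and 8.61 in saline for 1375768_at, and at 3.13 in 3-NP and 2.16 in saline for 1387762_s_at. On the day 3 design 1393138_at had 841 in 3-NP and 414 in saline, a relative log2 ratio of 0.92, under 2-fold and 417th from the highest of 3972 genes.

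Maff, the small Maf gene, was on the day 3 design only. Its signal was 253 in 3-NP and 2.43 in saline, at least 25.6-fold higher relative to the median gene with saline set to the floor of 9.22, a bound of 4.68 on the log2 scale. It stood 5th from the highest of 3972 genes. The size depends on the floor, as a bound of 5.53 was obtained at the 20th percentile and 4.13 at the 40th.

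Egr1, whose product binds GC-rich sites next to growth factor and clotting genes, had 697 in 3-NP and 123 in saline at day 1. It was 5.66-fold higher as deposited and 4.18-fold relative to the median gene, a relative log2 ratio of 2.06 at place 108. Egr2 had 449 in 3-NP and 115 in saline by 1387306_a_at, a relative log2 ratio of 1.53. The other Egr2 probe set, 1398266_a_at, came from the same source transcript and had 19.1 in 3-NP, under the floor, and 17.5 in saline, just above it, so it carried no usable ratio. Because Egr2 also marks Schwann cells, other genes of that cell and of neurons stand beside it. All 7 of these on the design were measured, with a median relative log2 ratio of 0.33 and a range of -0.26 to 1.54. Their summed signal as deposited was 6928 in 3-NP and 3987 in saline. After centring, these sums differed by 0.36 on the log2 scale. Prph, an intermediate filament gene of peripheral neurons, was the 1 marker past 2-fold (1.54), and the myelin genes Mbp and Pmp22 were at 0.69 and 0.33. Prph was also the 1 marker measured through the 3-NP array alone, where 47.8% of all genes were at least 2-fold higher. Of the 6 markers that reached the median of the saline array 0 were higher, beside 4.43% of all such genes. The part of these markers in the Egr2 result was not tested.

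Ier3 had 2390 in 3-NP and 337 in saline at day 1, 7.09-fold as deposited and 5.23-fold relative to the median gene. Its relative log2 ratio of 2.39 was 79th from the highest and second only to Fos among the members of that day. Ier3, Egr1, Egr2, Jun and Junb reached the median of the saline array by their brightest probe sets, so their entry did not depend on the 3-NP array. Junb reached it narrowly, with 46.1 in saline against a median of 44.9. Of the 6031 genes that passed in saline, 4.43% were at least 2-fold higher.

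**Figure D3:**
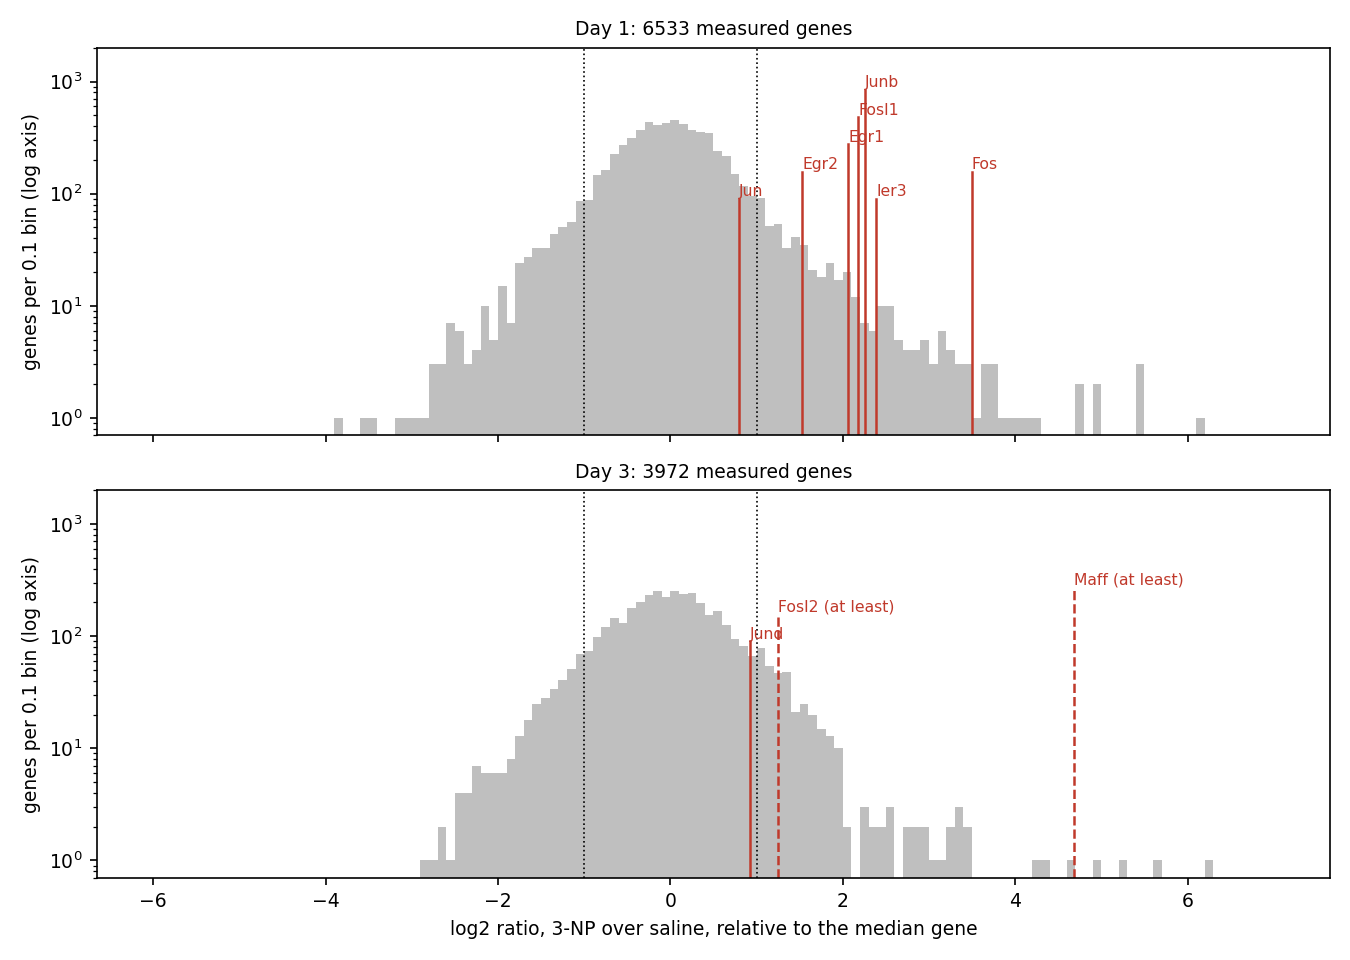
Distribution of the relative log2 ratio over all measured genes, 6533 at day 1 above and 3972 at day 3 below, in bins of 0.1 on a log count axis. Vertical lines are the measured members, dashed where the ratio is a lower bound, and dotted lines mark 2-fold. All measured members lie right of 0, with Jun and Jund inside the 2-fold line.

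By the signals of both arrays together, the measured genes nearest to Fos at day 1 were Nqo1, Psmb9 and Hspa1a, at distances of 0.19, 0.32 and 0.49 in the plane of log2 signal in 3-NP and in saline. Nqo1, a quinone reductase gene, had 553 in 3-NP and 39.9 in saline. Nearest to Maff at day 3 were Gbp4 (0.45), Ccl7 (0.60) and Cxcl9 (1.00), all under the floor in saline as Maff was. With 2 arrays a day these distances only describe similar levels.

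The rest of the AP-1 and bZIP network was mixed at day 1. Of 18 listed partners 10 were on the design and 7 were measured, of which 3 were at least 2-fold higher and 1 lower, with a median of 0.85 against 0 for all genes. As deposited 4 were higher. Of the 6 that reached the median of the saline array 2 were higher, beside 4.43% of all such genes. Atf3 was the 1 measured through the 3-NP array alone, where 47.8% of all genes were at least 2-fold higher. Atf3, a stress-induced factor that pairs with Jun, had 105 in 3-NP and 12.6 in saline, at least 4.52-fold higher. Atf4, the effector of the integrated stress response, had 3009 in 3-NP and 731 in saline, a relative log2 ratio of 1.60. Mafk, a small Maf like Maff, was at 1.45, and its relative Mafg at 0.85. Maf, a large Maf with an activation domain, went the other way at -1.23, with 250 in 3-NP and 432 in saline. Its other measured probe set gave -0.55. Fosb had 41.5 in 3-NP and 8.79 in saline, below the filter, with a bound of 0.84. At day 3, 3 partners were on the design and 0 were measured.

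Nab2, a corepressor that Egr factors themselves induce, had 138 in 3-NP and 39.5 in saline at day 1, a relative log2 ratio of 1.37. That day it was measured through the 3-NP array alone, as were 502 genes, of which 47.8% were at least 2-fold higher. At day 3 a probe set of the other design had 97.2 in 3-NP and 40.0 in saline, a ratio of 1.18, or 0.94 with 16 added to each signal and no floor. Its relative Nab1 was at 0.70 at day 1 and 0.11 at day 3. Egr3 and Egr4 were too dim to be measured at day 1, with 8.27 in 3-NP and 20.8 in saline for Egr3, and 23.9 in 3-NP and 16.9 in saline for the brighter Egr4 probe set.

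Of 38 other immediate early genes, 35 were on the day 1 design and 28 were measured, and 14 of these were at least 2-fold higher, 0 were lower and 14 were under 2-fold, with a median of 1.06. Of these, 9 were measured through the 3-NP array alone and all 9 were higher, while of the 19 that reached the median of the saline array 5 were higher. Over all genes the shares were 47.8% and 4.43%. As deposited 19 of the 28 were at least 2-fold higher. Ptgs2, which encodes the inducible cyclooxygenase, had 405 in 3-NP and 18.96 in saline, a relative log2 ratio of 3.98. Socs3, a feedback inhibitor of cytokine receptors, had 220 in 3-NP and 4.09 in saline, at least 9.49-fold higher. Csrnp1 was at 3.19 and the nuclear receptor gene Nr4a2 at 2.48, although another Nr4a2 probe set lay under both floors. Ptgs2, Socs3, Csrnp1 and Nr4a2 were all measured through the 3-NP array alone. The saline signals of Ptgs2 and Nr4a2 lay just above the floor. With the floor at the 40th percentile Ptgs2 was at 3.40 and Nr4a2 at 1.84. Under 2-fold were Klf4 at 0.40, Srf, which encodes serum response factor, at 0.24, the kinase gene Sgk1 at -0.12 and the clock gene Per1 at -0.57, named after their values were seen. At day 3, 4 were measured and 2 were at least 2-fold higher. Gem had 281 in 3-NP and 26.1 in saline (3.32), and Nr4a3 had 47.3 in 3-NP and 13.3 in saline (1.74). Nr4a3 was the 1 measured through the 3-NP array alone, and of the 3 that reached the median of the saline array 1 was higher. Over all genes of day 3 the shares were 50.9% and 4.89%.

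Of 27 listed genes of the kinases and factors that act before AP-1 and Egr, 17 were on the day 1 design and 12 were measured, with 2 higher, 1 lower and a median of 0.20. All 12 reached the median of the saline array, and as deposited 4 were higher. Crem, a CREB relative, had 245 in 3-NP and 62.4 in saline (1.53), and Mapkapk2, a kinase after p38, was at 1.26. Map2k6, a kinase that activates p38, was the lower one, with 151 in 3-NP and 484 in saline (-2.12). Less bright Crem probe sets gave a bound of 1.21 and a value of -0.12. At day 3, 8 of 10 on the design were measured and 3 were higher, with a median of 0.46: Crem with 503 in 3-NP and 120 in saline (1.96, and 1.58 by another measured probe set), Rps6ka3 (1.14) and Elk1 (at least 2.04-fold). Rps6ka3 and Elk1 were measured through the 3-NP array alone, where 50.9% of all genes of that day were at least 2-fold higher. Of the 6 that reached the median of the saline array 1 was higher, beside 4.89% of all such genes. Elk1 lay under 2-fold in both lowess scalings (0.90 in the one over measured gene probe sets), with the floor at the 40th percentile (0.48) and with 16 added to each signal and no floor (0.64), and was not measured with the filter at the 60th percentile. With 16 added and no floor Rps6ka3 was at 0.66. Signals show mRNA and carry nothing on kinase activity.

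Of 35 genes known in other settings as AP-1 or Egr targets, 32 were on the day 1 design and 22 were measured. At least 2-fold higher were 15 and lower 0, with a median of 1.84, and as deposited 18 were higher. Of these 22, 10 were measured through the 3-NP array alone and 9 of them were higher, while of the 12 that reached the median of the saline array 6 were higher, beside the same shares of 47.8% and 4.43% over all genes. Ccl2, a monocyte chemokine, had 742 in 3-NP and 6.15 in saline, at least 31.9-fold higher. Timp1, a metalloproteinase inhibitor, had 4455 in 3-NP and 168 in saline (4.29). Heme oxygenase (Hmox1, 3.77) and Nqo1 (3.35) were also among the 4 with the widest difference. Spp1, which encodes osteopontin, had 4672 in 3-NP and 6002 in saline (-0.80), and Mmp13 was at 0.11, named after their values were seen. These genes answer to many other factors, and 8 of the 32 were under the floor in both arrays by all their probe sets, Mmp9 and Tnf among them. At day 3, 0 were on the design.

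**Figure D4:**
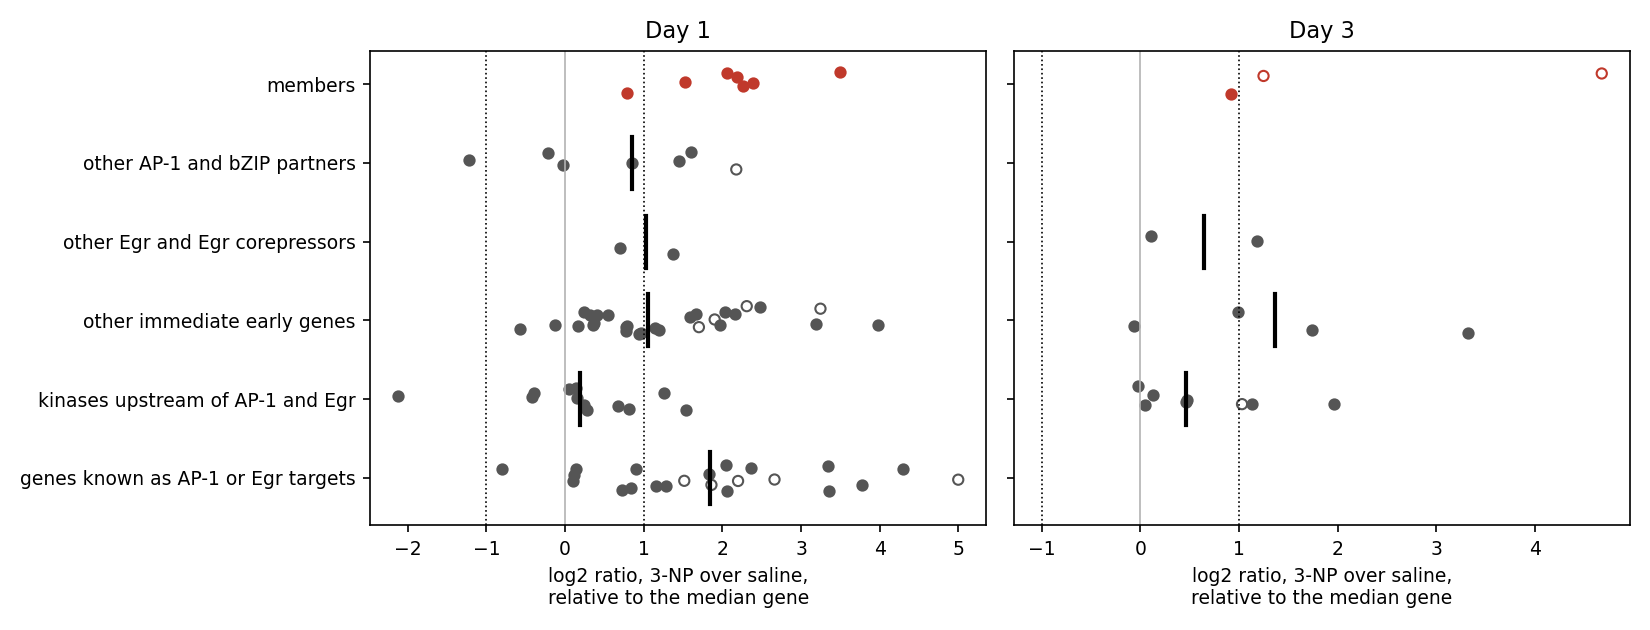
Relative log2 ratio of each measured gene in 5 pathway lists and of the measured members, at day 1 on the left and day 3 on the right. Open circles are bounds with 1 array at the floor, black bars are list medians, and dotted lines mark 2-fold. The immediate early and target lists both reach from below 0 to 3.98 or more at day 1, and the upstream list centres at 0.20.

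Cell type markers also differed between the arrays of a pair. At day 1 the 6 measured fibrocyte markers had a median of -1.07 (range -2.57 to 0.79). Their summed signal as deposited was 5659 in 3-NP and 10053 in saline, which is -1.27 in log2 after centring. At day 3 the cochlin gene Coch had 5677 in 3-NP and 6548 in saline (-0.31). Tbx18, a fibrocyte transcription factor gene, had 165 in 3-NP and 351 in saline that day (-1.19). Stria markers had a median of -1.47 and bone and cartilage markers -1.48 at day 1. Of 7 monocyte and macrophage markers on the day 1 design 4 were measured, between -0.06 and 1.54. The 3 not measured, Ptprc, Aif1 and Itgam, were under both floors. The summed signal of the 4 as deposited was 2209 in 3-NP and 1335 in saline, which is 0.29 in log2 after centring. Most of that sum was Lyz2, with 1876 in 3-NP and 1183 in saline (0.23). Neutrophil markers lay between -0.65 and 0.34, and the 3 measured endothelial and mural markers between 0.58 and 1.84. Mcam was at least 3.57-fold higher by its brighter probe set, measured through the 3-NP array alone, and at 0.82 by another. Of the 2 endothelial and mural markers that reached the median of the saline array 1 was higher. Below the filter, Pecam1 was at -0.23, Cspg4 at -0.36 and Pdgfrb at 0.11. At day 3 the 2 measured macrophage markers were at -1.07 and -1.08, and the lone neutrophil marker was at -0.29. The lone lymphocyte marker at day 1 was at -0.98, and the 2 stria markers at day 3 were at -1.85 and -1.93. As a sign of RNA quality, the signal at the 3′ end of beta-actin was 2.53 to 3.22 times that at its 5′ end over the 4 arrays. For Gapdh the same measure was 1.17 to 1.46. The part of these shifts in the member ratios was not tested.

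**Figure D5:**
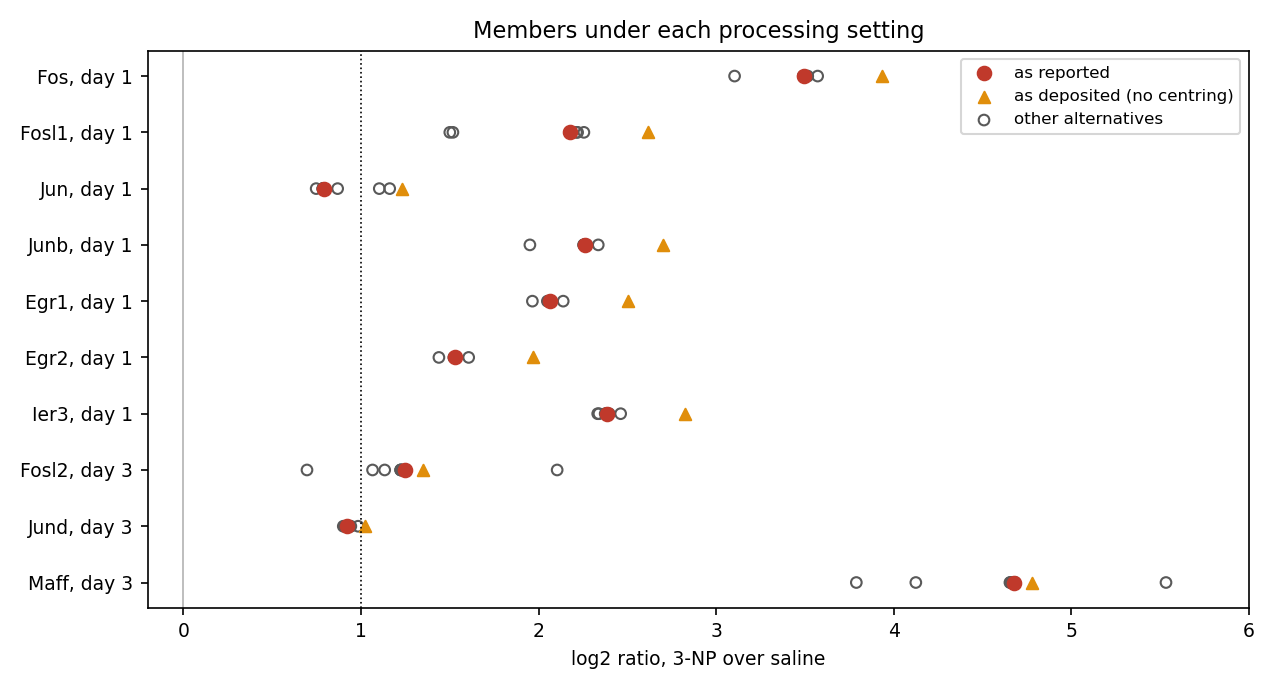
Log2 ratio of 3-NP over saline for each measured member under every processing setting, 1 row per gene and day. Filled circles are the values as reported, triangles the ratios as deposited without centring, open circles the other alternatives, and the dotted line is 2-fold. Fos, Fosl1, Junb, Egr1, Egr2, Ier3 and Maff stay right of that line throughout, while Jun, Fosl2 and Jund have values on both sides.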

How the data were processed

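The authors deposited linear MAS5 signal intensities, 1 per probe set, per the submitters' processing notes; biotinylated cRNA came from 6 µg of total RNA, per the labels' protocols. The sources used here do not give the scaling target or detection calls. Probe sets were named by the platform annotation and brought to current RefSeq symbols (GRCr8) by gene identifier: 12783 of 15866 probe sets at day 1 and 7564 of 15276 at day 3 had 1 symbol, 312 and 100 had several, and 2771 and 7612 had none. The designs share 157 probe sets, 57 of them controls.

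From these, log2 ratios, floors, filters and counts were computed with Python 3.11.15, pandas 2.3.3 and statsmodels 0.14.6, and tested on simulated data. With 1 array per group there was no test, and the number of arrays limits the precision. Members and lists were chosen with earlier results of these data known. Named from each of 5 pathway lists were up to 4 genes with the widest difference past 2-fold, otherwise the 1 furthest from 0, and the 3 genes nearest to Fos and Maff. The 8 marker lists are given by median or range. Marker genes named, and Mafg, Nab1, Fosb, Egr3 and Egr4, were chosen after their values were seen. Every member probe set is given. Alternatives changed the scaling, the floor, the filter and the probe set rule.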

Additional observations from a re-analysis of the deposited data

How the results depend on the processing

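No paired analysis was possible because each group is 1 array and the labels carry no replicate numbers. Each choice was varied by itself in 11 alternatives, of which a lowess fitted on measured gene probe sets was added after seeing the data. Of 77 member ratios recomputed at day 1, 66 moved by less than the probe set SD, and at day 3 it was 27 of 32. Of the member ratios 0 changed sign. Many could hardly move, as a changed floor leaves signals above it alone. Likewise the probe set rule matters little where only 1 probe set is measured. Fos kept between 3.10 and 3.93 and Egr1 between 1.97 and 2.50. Jun passed 2-fold in 3 of 11 alternatives, at 1.23 as deposited, 1.16 as the mean of its probe sets and 1.10 by the dimmest. Jund passed it as deposited alone (1.02). Fosl2 at day 3 was under it with the floor at the 40th percentile (0.70) and was not measured with the filter at the 60th, so members at least 2-fold higher at day 3 numbered 1 under each of these, against 2. Genes at least 2-fold apart at day 1 as deposited were 1169 higher and 171 lower, against 507 and 423 after centring, which takes off the shift of 0.44. Lower pathway list genes at day 1 were 1 instead of 2 as deposited, with the mean of probe sets and with the dimmest probe set. With 16 added to each signal and no floor, the counts at day 3 were 155 higher and 148 lower genes, against 366 and 325, and 3 higher pathway list genes against 6, since added signal shrinks the ratios of dim genes. Counts for single pathway lists stayed within 1.5 times for 72 of 77 recomputed at day 1 and 31 of 33 at day 3, leaving out counts that were 0 under every setting. Fosl1, Fosl2 and Maff rest on saline signals near or under the floor.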

Other observations

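Of the listed pathway and marker genes, 8 were measured on both array designs, by different probe sets on each. Among these, Nab2 and Bhlhe40 were measured at day 1 through the 3-NP array alone. Crem was at 1.53 at day 1 and 1.96 at day 3, and Nab2 at 1.37 and 1.18. Bhlhe40, an immediate early gene, was at 2.03 at day 1 and 0.99 at day 3, and Nab1 at 0.70 and 0.11. Elk3, a ternary complex factor gene, was at 0.05 and 0.13, and the kinase gene Mapk8 at -0.42 and 0.47. The cartilage collagen gene Col2a1 was at -0.27 at day 1 and -0.49 at day 3, and the myelin gene Mbp at 0.69 and -0.05. Probe set and day cannot be told apart in these values, and the difference between days was not tested.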
